A study of Mus musculus with 2 samples.

Results

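The clustered histone genes are the replication-dependent histone genes and their close relatives that lie side by side in the Hist1, Hist2, Hist3 and Hist4 loci. They encode the linker histone H1 and the core histones H2A, H2B, H3 and H4. Members were the genes with a clustered histone symbol of that older style (Hist1h4d, for example) that had a probe set naming them alone. The platform annotation gives the current symbols (H4c4 for Hist1h4d), so the older symbols were matched through the Entrez gene identifier. This gave 31 genes, each with 1 probe set, of 70 clustered histone genes in the reference gene table and of 19936 genes measured in all. By class they were 5 H1, 5 H2A, 11 H2B, 3 H3 and 7 H4 genes.

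Each nucleosome is a spool of DNA around an octamer of the core histones, and H1 binds where the DNA enters and leaves it. Most clustered histone genes are transcribed in S phase, when new chromatin needs histones. Their mRNAs carry no introns and end in a conserved stem-loop bound by SLBP in place of a poly(A) tail. Some members can also make polyadenylated mRNAs in cells that have stopped dividing. In bone marrow, dividing precursors of several lineages use these genes, and cells close to maturity use them less.

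The study sorted mononuclear bone marrow cells of ddY mice, an outbred strain, at 6 weeks of age. Sorting was by surface RANK, which binds the osteoclast-inducing cytokine RANKL, and by surface c-Fms, which binds M-CSF. RNA of the RANKhighFmslow cells (the RANKhigh sample) and of the RANKlowFmshigh cells (the Fmshigh sample) was hybridised to 1 GeneChip array each, 2 arrays in all. The labels name no further treatment or genetic change for either sample and do not say how many mice were pooled. The series concerns osteoclast precursors. As there was 1 array per sample, no difference has a replicate check, and every value describes these 2 arrays. A difference is the log2 intensity of the RANKhigh sample less that of the Fmshigh sample.

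H4 is the class whose median differed most between the samples, and its promoters are shown first because they carry a sequence that the other classes mostly lack. The letters GGTCCG, part of the H4-specific promoter element, were searched on both strands of a window from 250 bases before to 50 bases after the annotated start, for the 26 members with a window in the RefSeq promoter table (GRCm38.p6). They stood in 6 of 6 H4 windows, in 1 of 20 windows of the other classes (H2bc9) and in 8.25% of all 32851 windows. The 100 bases before the start are printed for H4 genes from both ends of the range of differences. Capitals mark GGTCCG and, where present, the TATA box letters TATAAA.
H4c4 (chr13:23581468-23581567, plus strand): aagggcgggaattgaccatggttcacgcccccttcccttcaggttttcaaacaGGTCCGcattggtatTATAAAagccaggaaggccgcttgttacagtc
H4c6 (chr13:23551669-23551768, minus strand): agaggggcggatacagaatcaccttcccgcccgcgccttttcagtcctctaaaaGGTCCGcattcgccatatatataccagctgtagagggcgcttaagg
H4c3 (chr13:23698459-23698558, minus strand): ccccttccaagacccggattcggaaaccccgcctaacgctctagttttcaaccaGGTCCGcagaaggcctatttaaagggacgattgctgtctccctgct
H4f16 (chr6:136804432-136804531, minus strand): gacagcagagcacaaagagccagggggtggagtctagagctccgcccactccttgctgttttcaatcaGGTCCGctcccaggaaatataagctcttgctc
H4c9 (chr13:22041363-22041462, minus strand): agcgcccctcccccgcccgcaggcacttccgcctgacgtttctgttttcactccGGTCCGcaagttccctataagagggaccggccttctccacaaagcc
The element began 46 bases before the start in H4c3, H4c6 and H4c9 and 47 bases before it in H4c4. In H4f16 it began 32 bases before the start, and in H4c8, not printed, 5 bases before it. H4c9 held these letters at the same place as H4c3 and H4c6. Its difference between the samples had the opposite sign to theirs (below). Any link between the element and the differences was not tested.

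H2B members that differed in opposite directions are printed for 250 bases before the start, since their windows differ in the octamer ATTTGCAT. Capitals mark ATTTGCAT, CCAAT on either strand and TATAAA.
H2bc8 (chr13:23571150-23571399, plus strand): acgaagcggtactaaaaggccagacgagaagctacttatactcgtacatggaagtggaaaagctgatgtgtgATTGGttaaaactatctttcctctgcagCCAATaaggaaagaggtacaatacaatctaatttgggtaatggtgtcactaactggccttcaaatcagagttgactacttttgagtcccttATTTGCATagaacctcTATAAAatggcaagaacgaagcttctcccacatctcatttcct
H2bu2 (chr11:58948661-58948910, plus strand): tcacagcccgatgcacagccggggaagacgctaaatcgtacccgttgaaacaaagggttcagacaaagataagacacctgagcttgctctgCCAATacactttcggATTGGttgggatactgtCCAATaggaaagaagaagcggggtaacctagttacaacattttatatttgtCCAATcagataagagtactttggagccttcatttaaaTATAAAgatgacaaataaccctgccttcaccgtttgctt
ATTTGCAT stood in 5 of 8 H2B windows, 4 of 5 H2A windows and none of the 5 H1, 2 H3 and 6 H4 windows, against 1.74% of all windows. Part of this count is shared: the windows of H2bc8 and H2ac8 overlap, as do those of H2bc1 and H2ac1. The octamer was found in genes of both directions, in a tally too small to read further. Among genes above the background guide in both samples, H2bc8, H2bc3, H2bc18, H2bc14 and H2ac1 have it and read lower in the RANKhigh sample, and H2aw has it and read higher. H2bc9 and H2ac15 lack it and read lower, and H2bc22 (below the level filter) and H2bu2 lack it and read higher. H2bc21 and H2bc4, which also read higher, have no window and are not in this tally. CCAAT stood in all 20 windows outside H4, in 2 of 6 H4 windows and in 37.4% of all windows. TATAAA stood in 16 of 26 member windows, against 13.6% of all. The letters AAACACA, known from H1 promoters, stood in 4 of 5 H1 windows, 4 of the 21 others and 7.18% of all. These matches describe letters in a window and are not evidence of binding.

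Over all 31 genes, 13 were higher and 18 lower in the RANKhigh sample. The median log2 difference was -0.13, against 0.01 over all 19936 genes. That median is the value of H2bc1, a gene at background level, and over the 26 members above background in at least 1 sample the median was -0.15. The members did not move as a block: they ran from -1.16 (H4c4) to 0.84 (H2bu2). A level filter, a higher value of at least 93.6, the median of all intensities, was passed by 23 of the 31, and 22 of these reached it on both arrays. Of the 23, 0 reached a 2-fold excess in the RANKhigh sample, against 4.34% of all 11089 genes that passed, and 2 reached it in the Fmshigh sample, against 4.26%. At the smaller fold of 1.5, 4 were higher (17.4% of the 23, against 10.5% of all genes) and 5 were lower (21.7%, against 12.4%). These are small counts of related genes, without a test. Background was gauged from the olfactory and vomeronasal receptor genes, a family of the sensory epithelia: 26 of the 31 members were above their 95th percentile in at least 1 sample (83.5 RANKhigh, 81.5 Fmshigh) and 5 in neither. The 8 members below the filter were H1f6, H1f3, H2ac8, H2bc1, H2bu1-ps, H2bc22, H3c7 and H3c15.

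**Figure D1:**
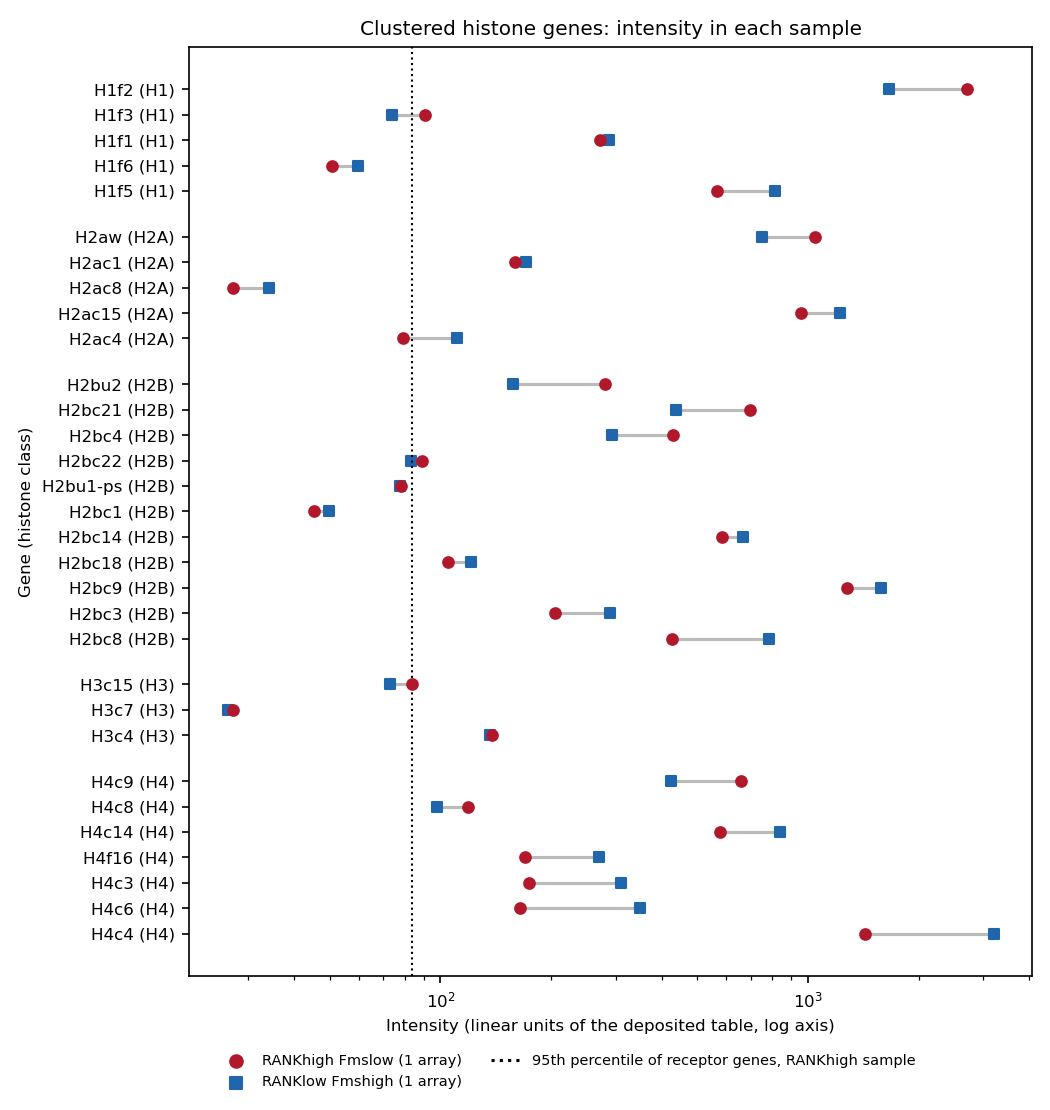
Intensity of each of the 31 clustered histone genes in the RANKhigh sample (circles) and the Fmshigh sample (squares), 1 value per array on a log axis, grouped by class and ordered within it by the difference. The dotted line is the 95th percentile of olfactory and vomeronasal receptor genes in the RANKhigh sample (83.5), and 5 of 7 H4 genes have the square to the right of the circle.

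H4 genes were mostly lower in the RANKhigh sample. H4 pairs with H3 at the heart of the nucleosome, and its genes encode one of the most conserved proteins known. H4c4 read 1431 in the RANKhigh sample and 3203 in the Fmshigh sample, a 2.24-fold difference. H4c6 stood at 164 and 350 (2.13-fold), and H4c3 at 174 and 310 (1.78-fold). These values put H4c4 and H4c6 alone among the members past 2-fold. H4f16, the only gene of the Hist4 locus, stood at 170 and 271, and H4c14, of the Hist2 locus, at 576 and 838. Lower values in the RANKhigh sample were thus seen with probe sets that name H4 genes of 3 chromosomes. Such probe sets may also bind other H4 genes (below), so these may not be separate readings of each locus. The exceptions were H4c9, at 659 and 424 (1.56-fold higher in the RANKhigh sample), and H4c8, at 119 and 98.2. The median over the 7 genes was -0.67.

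H2B genes were divided. H2B pairs with H2A, and each H2A-H2B dimer docks on the H3-H4 core. H2bc8 stood at 426 in the RANKhigh sample and 781 in the Fmshigh sample (1.83-fold lower in the RANKhigh sample), and H2bc3 at 205 and 290. H2bc9 stood at 1276 and 1586, H2bc14 at 584 and 667, and H2bc18 at 105 and 121. Against these lower values, H2bu2, one of the H2B genes of the Hist3 locus, stood at 281 and 158 (1.79-fold higher). H2bc21, of the Hist2 locus, stood at 697 and 437 (1.59-fold higher), and H2bc4 at 430 and 292 (1.47-fold higher). The remaining H2B members were near or below the level of the receptor genes: H2bc22 stood at 89.3 and 83.1, and the transcribed pseudogene H2bu1-ps at 78.4 and 77.5. H2bc1, the H2B variant of the testis, stood at 45.4 and 49.8. The H2B median of -0.13, again the value of H2bc1, describes neither group, and over the 9 H2B genes above the receptor guide it was -0.19.

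H2A genes differed less. H2ac15 stood at 959 in the RANKhigh sample and 1220 in the Fmshigh sample, a log2 difference of -0.35. H2ac4 stood at 79.0 and 111, where the lower value is not above the receptor genes, so that it was at least 1.33-fold lower. H2ac1, known as a testis variant, stood at 160 and 171, and H2ac8 was below the receptor genes on both arrays, at 27.2 and 34.1. The exception was H2aw, of the Hist3 locus, at 1047 and 751 (1.39-fold higher). The H2A median of -0.32 is the value of H2ac8 itself, and over the 4 genes above the receptor guide in at least 1 sample it was -0.23.

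The H1 genes spanned both directions. H1f2, the linker histone also called H1c, stood at 2709 in the RANKhigh sample and 1658 in the Fmshigh sample (1.63-fold higher). H1f5, also called H1b, stood at 567 and 816 (1.44-fold lower in the RANKhigh sample). H1f1 was nearly level at 272 and 288. H1f3 stood at 91.0 and 74.1, at least 1.12-fold higher, with its Fmshigh value under the receptor guide. The testis-specific H1f6 stood at 50.6 and 59.5, below those genes on both arrays. The H1 median was -0.08.

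H3 has the thinnest coverage. H3c4 stood at 138 in the RANKhigh sample and 137 in the Fmshigh sample, and it was the only H3 member to pass the level filter. H3c15 stood at 83.6 and 73.0, close to the receptor guide, and H3c7 at 27.3 and 26.4, below it. No difference can be stated for H3 from genes with a probe set of their own.

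Most probe sets shared by several genes of a class read members together with genes that have no probe set of their own. The H4 sets do not name H4c14 or H4f16, and no set of 1 class was found for H1 or H2A. The coding sequences within a class are near-identical, so a probe set naming 1 gene may also bind its relatives. Of the 70 genes, 38 appeared only in shared probe sets, which the gene rule leaves out, and H2ac14 appeared in none. Of 27 shared probe sets, 23 named genes of 1 class only, and all 23 were lower in the RANKhigh sample. The 6 for H4 had a median of -0.92 (-0.95 to -0.83), the 10 for H3 one of -0.58 (-0.62 to -0.39), and the 7 for H2B one of -0.31 (-0.34 to -0.22). In intensity, the H4 sets had a median of 1513 in the RANKhigh sample and 2833 in the Fmshigh sample, the H3 sets of 544 and 819, and the H2B sets of 2709 and 3404. A pair of sets for nearly all H2A genes, which also named H2ax and H3c4, stood at -0.22 and -0.27. A set naming H2bc6 and H1f4 stood at -0.32. The remaining set, which names H2aw and a gene outside the histone family, was the only one of the 27 to be higher in the RANKhigh sample, at 187 and 152 (0.30). Of the H4 sets, 1, at 42.8 and 76.9, was below the receptor guide in both samples. These probe sets are not independent of each other. All 10 H3 sets name the same 12 genes, the 7 H2B sets name 14 or 15 of the same genes, and most H4 sets name the same 11. The 23 are thus largely repeated readings of the same genes, and 2 pairs agreed within 0.1% on both arrays.

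For H4 the shared sets and most genes pointed the same way, but most of these sets also name H4 members, so they are not separate readings. For H3 the shared sets had a median of -0.58, whereas H3c4, which they also name, read 0.01. H3c4 stood at 138 and 137, low beside the 544 and 819 of the shared sets, so this is not a like comparison. For H2B the shared sets lay within the range of the lower genes. How much of each probe set's signal comes from relatives was not tested.

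**Figure D2:**
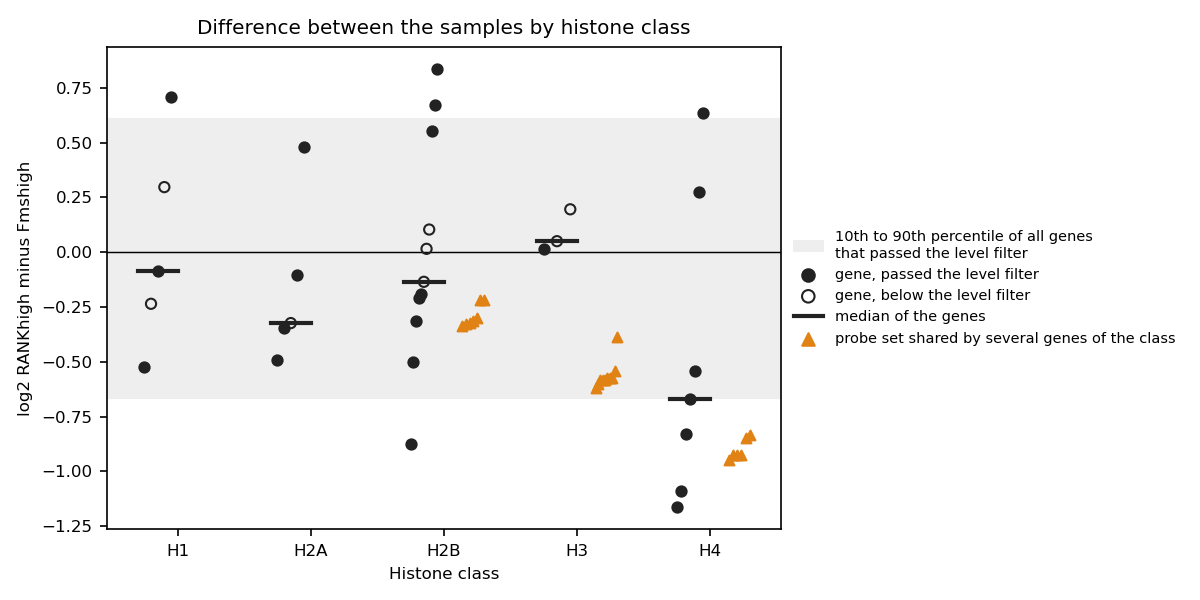
Log2 difference (RANKhigh minus Fmshigh sample) by histone class, with 1 point per gene, open where the gene is below the level filter, a bar at the median of the genes, and triangles for probe sets shared within a class. The shared H4 sets lie between -0.95 and -0.83, while H4c9 and H4c8 are the H4 points above 0.

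The members that were higher in the RANKhigh sample included the genes described with polyadenylated transcripts in differentiated cells. Of the 5 genes in that list, 4 had a probe set of their own (H1f2, H2bc4, H2bc21 and H2aw), and all 4 were higher, by 0.48 to 0.71 on the log2 scale with a median of 0.61. Only 2 of the 4, H1f2 and H2bc21, passed 1.5-fold, against 10.5% of all genes that passed the level filter. A list of 4 genes is too small to set apart from that share. The list names a property known from other cells, and these arrays do not show whether the transcripts here carried a poly(A) tail. The list was also chosen with earlier results of these data known, so the shared direction is no test of that property. Of the 3 germ-line genes (H1f6, H2bc1 and H2ac1), H2ac1 alone was above the receptor genes.

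The Hist1 genes on chromosome 13 fall into stretches, and the longest held 18 members, 6 higher and 12 lower. There H4c3 (-0.83) and H1f2 (0.71) are neighbours, as are H4c4 (-1.16) and H3c4 (0.01). Only these 2 pairs of adjacent members had both genes above the receptor guide in both samples, so neighbours could hardly be compared. All 3 Hist3 members on chromosome 11 were higher, from H2bu1-ps (0.02) to H2bu2 (0.84), although H2bu1-ps was not above the receptor genes. The 4 Hist2 members on chromosome 3 were split evenly, with H2bc21 and H3c15 higher and H4c14 and H2bc18 lower.

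**Figure D3:**
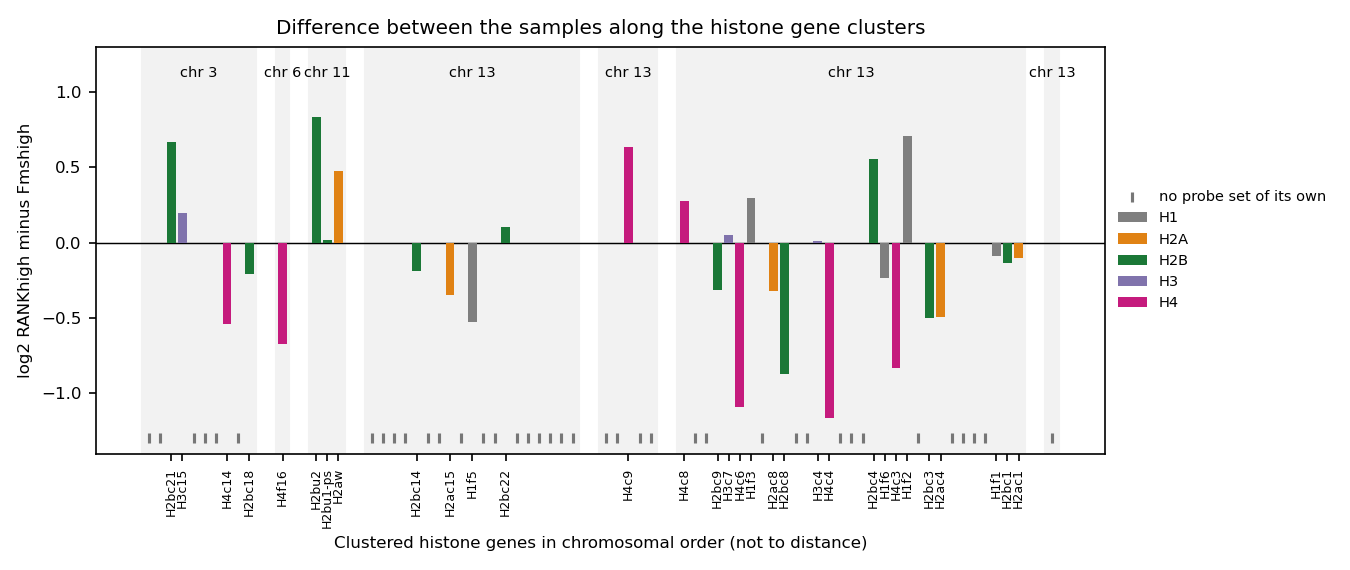
Log2 difference (RANKhigh minus Fmshigh sample) of the members in chromosomal order, coloured by class, with ticks for clustered histone genes that have no probe set of their own; shaded blocks are stretches of neighbouring genes. In the longest stretch the bars for H4c6 (-1.09), H4c4 (-1.16) and H4c3 (-0.83) stand among others that point up, such as H1f2 (0.71).

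Histone genes outside the clusters were set beside the members. Their transcripts are mostly polyadenylated and made throughout the cell cycle. Of 12 measured, 11 passed the level filter, and of these 1 passed 2-fold upwards and 1 downwards. The shares over all genes were 4.34% and 4.26%, and the median of the 12 was -0.01. H2ax, the H2A variant phosphorylated at DNA breaks, stood at 1107 in the RANKhigh sample and 370 in the Fmshigh sample (2.99-fold higher). Macroh2a1, whose protein carries a large extra domain and marks repressed chromatin, stood at 769 and 1624 (2.11-fold lower). Macroh2a2 stood at 60.3 and 111, the former not above the receptor genes, and H2az2 at 1326 and 965. Both H2ax and Macroh2a1 differed more than any H2A member.

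Genes that serve histone supply had medians close to level, with individual genes on both sides. The 17 measured genes for histone gene transcription and mRNA processing had a median of 0.00, and 16 passed the level filter. Of these 16, 0 passed 2-fold in either direction, against 4.34% of all genes upwards and 4.26% downwards. At 1.5-fold, 1 was higher and 1 lower, against 10.5% and 12.4% of all genes. These counts are too small to set apart from the shares of all genes. Lsm10, a subunit of the U7 snRNP that cuts histone pre-mRNA, stood at 236 in the RANKhigh sample and 395 in the Fmshigh sample, and Eri1, an exonuclease that trims histone mRNA ends, at 715 and 1070. In the other direction, Mif4gd, a partner of SLBP in translation, stood at 151 and 94.2, and Hinfp, the factor that binds the H4 promoter element, at 171 and 119. The Hinfp difference was 0.53, and its part in the H4 differences was not tested. Slbp itself, chosen after its value was seen, stood at 833 and 680 (0.29). Among 18 histone chaperones, 0 passed 2-fold, with a median of -0.01, from Hat1, the enzyme that acetylates new H4 (-0.41), and Supt16, a subunit of FACT (-0.41), to Daxx, a chaperone of H3.3 (0.53), and Cabin1 (0.65).

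Mitotic genes were mostly higher in the RANKhigh sample, while DNA replication genes were mixed. Their part in the histone differences was not tested. Of 16 mitotic genes 15 were higher in the RANKhigh sample, with a median of 0.26. None of these lists had a gene past 2-fold (0 in each), against 4.34% of all genes upwards and 4.26% downwards. The largest values were those of Ube2c (0.76), which targets cyclins for destruction, the proliferation antigen gene Mki67 (0.74), Birc5 (0.44) and Cenpe (0.43). Of 20 DNA replication genes 14 were higher and 6 lower, with a median of 0.12 and again 0 past 2-fold. Ccne1, the cyclin that opens S phase, stood at 0.82 and the ribonucleotide reductase gene Rrm2 at 0.65, whereas the helicase subunit gene Mcm3 (-0.63) and the polymerase gene Pola1 (-0.49) were lower.

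**Figure D4:**
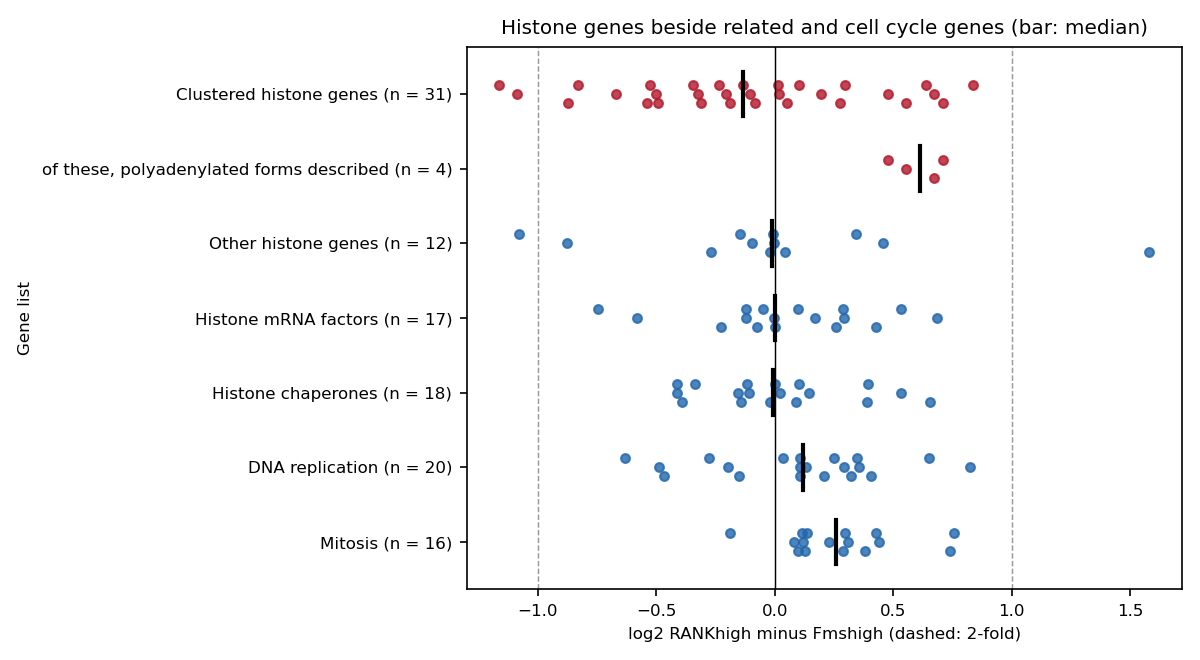
Log2 difference (RANKhigh minus Fmshigh sample) of the clustered histone genes, of the 4 among them with described polyadenylated forms, and of other histone, histone mRNA, chaperone, replication and mitosis genes, 1 point per gene, with a bar at each median and dashed lines at 2-fold. The mitosis median is 0.26 and that of the clustered histone genes -0.13.

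Cell type markers differed between the samples as well. All 7 measured monocyte markers were lower in the RANKhigh sample (median -2.19, summed intensity 3431 against 16889). Csf1r is among these 7, and as it encodes a protein used for the sort it is not a separate marker. All 8 erythroid markers (median 2.32, 12356 against 2657), all 9 early B cell markers (1.84, 9478 against 2397), all 7 late neutrophil markers (2.61, 23958 against 4557) and all 4 eosinophil markers (3.63, 11912 against 1001) were higher. All 5 mature B cell markers (1.94, 4177 against 1057) and all 4 T cell markers (1.52, 1425 against 425) were higher too, while of the 4 early neutrophil markers 3 were lower and Elane was higher (0.29), with a median of -0.51 (5421 against 7360). These lists differed between the same samples, and their part in the histone differences was not tested. In such bulk samples fewer cells of a type and less RNA per cell cannot be told apart. Csf1r, which encodes c-Fms, followed the sort (164 against 821), Tnfrsf11a, which encodes RANK, did not (104 against 119), and 5 of 6 osteoclast markers were below the level filter, Acp5 being the exception at 546 against 188.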

How the data were processed

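The authors deposited a linear intensity for each probe set in each sample. The tools GCOS 1.4 and RMA appear in the submitters' processing notes, with no role or order. The deposited intensities were put on the log2 scale here without further scaling. The 2016 platform annotation pairs 21780 of the 28815 probe sets with 1 gene and 1605 with several, and does not list 5430. Probe sets of a gene were averaged on the log2 scale.

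No symbol in the annotation has the older histone form, so members were matched by Entrez identifier to the older symbols of the GRCm38.p6 gene table. All 31 matched. Promoter sequences are RefSeq's, of that build, for 26 members. H2bc21, H2bc4, H2bu1-ps, H3c7 and H4c14 had no window. The array's own build is not given in the sources used here.

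With 1 array per group no test was possible. Genes were counted at 2-fold and 1.5-fold. A lower value below the 95th percentile of 1174 receptor genes on its own array (83.5 RANKhigh, 81.5 Fmshigh) gives a bound, written "at least". The number of arrays limits the precision. How far the amplification captured transcripts without a poly(A) tail was not tested.

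Up to 3 members per class with the largest difference in each direction and the 5 with the highest level were named, and up to 4 genes of each other list. The printed promoters other than H4c4 and H2bu2 were chosen after their values were seen. Members and lists were chosen with earlier results of these data known. The counting code was run with Python 3.11.15 and pandas 2.3.3 on simulated data, with changes well past 2-fold and noise of a chosen size. That run checks the code only and says nothing on the precision of the counts.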

Additional observations from a re-analysis of the deposited data

How the results depend on the processing

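The alternatives were another choice of probe set, centring, quantile normalization, an offset of 50, the addition of shared probe sets and other level filters. No class median past 0.1 in size changed sign, but smaller ones did. The H3 median of 0.05 turned negative when the shared probe sets were added. The H1 median of -0.08 turned positive with the receptor-based filter. The 9 members past 1.5-fold all stayed past it, in the same direction, with centring or quantile normalization, and 7 did with the offset of 50. Of the 31 members, 2 changed sign with quantile normalization, H2bu1-ps (-0.02) and H3c4 (-0.03). Quantile normalization moved the H2A median to -0.21, and the offset moved it to -0.12, the H4 median to -0.54 and the number of genes at least 2-fold lower to 1. Adding the shared probe sets, each as 1 entry beside the members, moved the median of all entries to -0.33 and that of H3 to -0.58. The H4 median moved to -0.85, the value of a shared set below the receptor genes in both samples. The number of entries at least 1.5-fold lower rose from 5 to 12. The added entries are largely repeated readings of the same genes, so this is not a count of 12 separate genes. With the receptor-based filter the H1 median was 0.11. Each gene had 1 probe set, so the choice of probe set changed nothing.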
